A study of Mus musculus with 6 samples.

Results

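The genes of the core circadian clock were examined one by one in striatum from PGC-1alpha null mice and their wild-type littermates. The knockout (KO) group comprised 3 PGC-1a-/- mice and the wild-type (WT) group 3 PGC-1a+/+ mice, all female, all 6 months old and all bred from heterozygous founders. The labels describe the KO mice as null animals and name no Cre driver or tissue-restricted allele. RNA from each striatum was hybridised to 1 Affymetrix mouse array. The array of KO 3 is labelled cytoplasmic RNA and the other 5 total RNA, whereas the series design names total RNA for all, so differences of the clock genes that moved by over 1.5 times without KO 3 are also given without it. The hour at which the tissue was taken, on which clock transcript levels depend, is not stated in the labels or the series design.

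The genes were chosen by name: Per1, Per2, Per3, Cry1, Cry2, Nr1d1, Nr1d2, Dbp, Arntl (also called Bmal1) and Clock. All probe sets annotated to exactly 1 of these symbols were taken, which gave 23 of the 45101 on the array for all 10 genes. Of these, 21 had a mean signal above the filter on dim probe sets, a signal of about 26.8, and were tested among 27022 probe sets in all. A pair of dim Per3 probe sets did not pass the filter. Values are MAS5 signals on a linear scale, already scaled by the authors to the same trimmed mean on every array, and they are not compared between different probe sets. Differences are KO minus WT on the log2(signal + 16) scale, with a standard error (SE) and an adjusted p from limma. The targeted gene, Ppargc1a, had 5 probe sets, and in each of them all KO mice lay below all WT mice, with an adjusted p under 0.05 (differences -1.93 to -1.12). Without the intensity trend 3 of the 5 passed (adjusted p = 0.087 for 1437751_at and 0.12 for 1460336_at).

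The clock is a transcriptional feedback loop. CLOCK and BMAL1 form the activator, which binds E-box elements and switches on the Period and Cryptochrome genes, whose proteins return to repress it. The same activator drives Nr1d1 and Nr1d2, which encode REV-ERB receptors that repress Arntl, and Dbp, which encodes a D-box binding activator of output genes. In most tissues Arntl therefore peaks near the opposite phase to many E-box genes. Depending on the hour, a shift of phase could move the activator arm and the E-box genes in opposite directions. That hour is not known here, the E-box genes do not all peak together, and Clock is little rhythmic in most tissues. PGC-1alpha is known as a coactivator of the ROR receptors, which compete with REV-ERB at the Arntl promoter, in liver and muscle cells.

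No probe set of the 10 clock genes passed the threshold of an adjusted p under 0.05, in either direction. Over all probe sets tested, 127 passed, or 0.47%, so a count of 0 among 21 is near what this share gives. At an unadjusted p under 0.05 limma counted 4 of the 21, against 9.17% of all probe sets tested. One of these was higher in KO, that of Cry1, against 4.11% of all, and 3 were lower, 1 each of Per1, Per3 and Clock, against 5.06% of all. The groups did not overlap for 3 of the 21, against 14.4% of all. These were the same Per1, Per3 and Clock probe sets, all lower in KO, against 7.88% of all. The median difference of the 21 was 0.10, with 13 above 0 and 8 below, and that of all probe sets was -0.005, with 48.9% above 0. The median size of a difference, without its sign, was 0.18 for the clock genes and 0.12 for all.

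**Figure D1:**
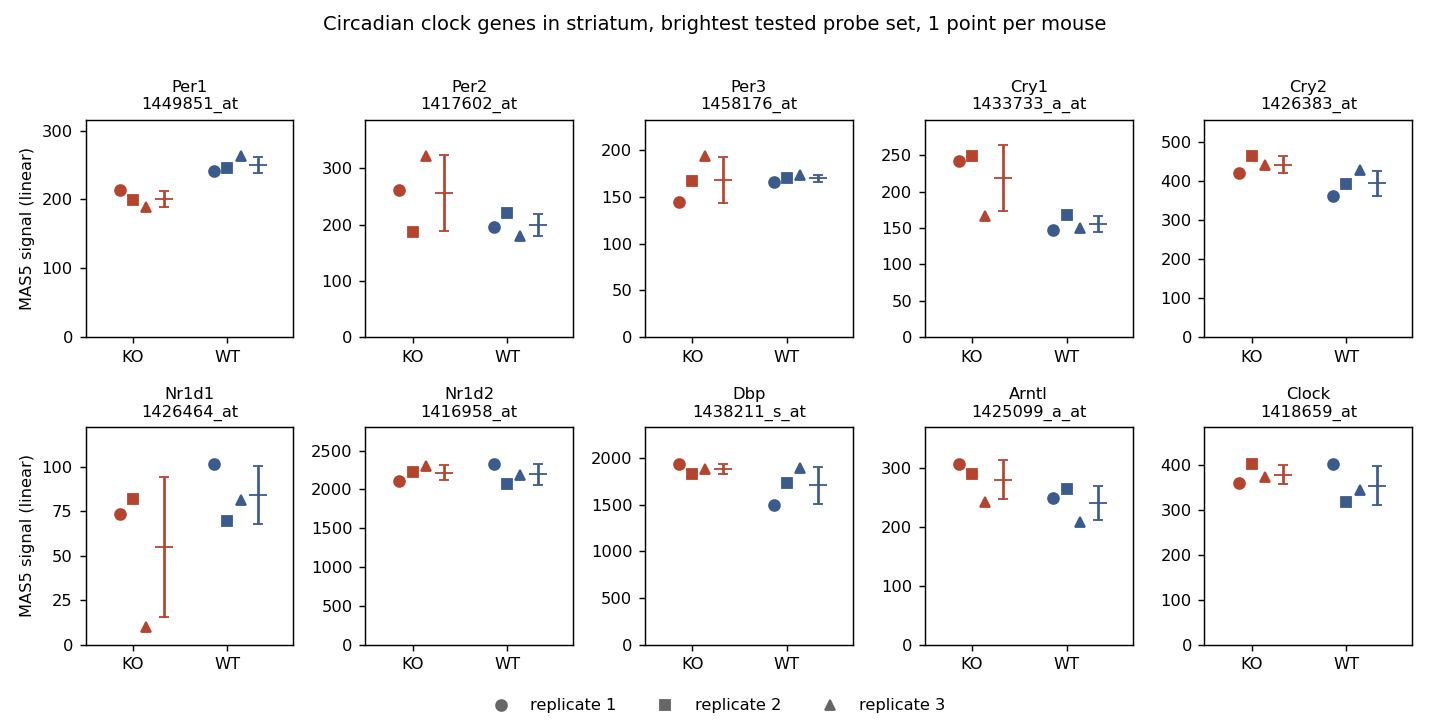
MAS5 signal (linear, from 0) of each clock gene by its brightest tested probe set, with KO mice left of WT mice, 1 point per mouse and a bar for the mean and SD of each group (n = 3). Per1 is the only panel in which the 3 KO mice (189.1 to 213.3) all lie on one side of the WT mice (241.2 to 263.2), and Nr1d1 in KO 3 (9.7) lies far below the other 5 mice.

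Promoters are shown for the 4 genes in which a clock element was found near the start site, because the Period, Cryptochrome and Arntl values below can then be read beside the element each carries. Of the 10 genes, 9 had an entry among RefSeq promoters of build GRCm38.p6, with 13 start sites in all, and Per2 had none. Each window runs from 250 bases before to 50 bases after the start. Capitals mark the E-box CACGTG, the D-box TTATGNAA or the ROR half-site TAGGTCA, searched on both strands, and no matches overlapped.
Per1, chr11:69098699-69098998, plus strand, with an E-box and a D-box: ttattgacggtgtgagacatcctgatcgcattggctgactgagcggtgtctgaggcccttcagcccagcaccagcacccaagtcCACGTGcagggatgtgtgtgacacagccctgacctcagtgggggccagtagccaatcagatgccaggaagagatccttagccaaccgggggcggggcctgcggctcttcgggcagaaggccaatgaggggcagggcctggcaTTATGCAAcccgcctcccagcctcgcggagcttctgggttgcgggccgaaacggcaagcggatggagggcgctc
Cry1, chr10:85185005-85185304, minus strand, with an E-box: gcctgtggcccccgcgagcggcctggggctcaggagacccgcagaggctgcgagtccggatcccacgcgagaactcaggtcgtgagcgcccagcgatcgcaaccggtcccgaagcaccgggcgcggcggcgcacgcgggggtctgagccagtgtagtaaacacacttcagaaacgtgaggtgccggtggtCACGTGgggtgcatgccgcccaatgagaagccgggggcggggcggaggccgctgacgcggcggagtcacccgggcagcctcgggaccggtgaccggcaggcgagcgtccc
Per3, chr4:151044616-151044915, minus strand, with a pair of D-boxes: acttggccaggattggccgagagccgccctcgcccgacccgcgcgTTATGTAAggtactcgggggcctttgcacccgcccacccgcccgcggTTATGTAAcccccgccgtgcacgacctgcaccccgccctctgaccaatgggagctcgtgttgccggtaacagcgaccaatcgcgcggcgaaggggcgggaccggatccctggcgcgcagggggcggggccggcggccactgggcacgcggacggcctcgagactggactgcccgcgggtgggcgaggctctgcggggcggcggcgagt
Arntl, chr7:113207261-113207560, plus strand, at one of its start sites, with a ROR half-site just downstream of the start: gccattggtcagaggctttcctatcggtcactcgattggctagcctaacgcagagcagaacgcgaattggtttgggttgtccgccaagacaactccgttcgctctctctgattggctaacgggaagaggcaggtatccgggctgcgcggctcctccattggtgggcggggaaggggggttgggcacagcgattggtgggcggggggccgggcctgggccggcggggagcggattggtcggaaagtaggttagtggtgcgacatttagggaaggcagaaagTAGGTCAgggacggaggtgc
The E-box was present in 7.15% of all 32851 promoter windows of the same length, the D-box in 3.38% and the ROR half-site in 2.61%. A match describes only the letters of the window, and for Clock, Dbp, Cry2, Nr1d1 and Nr1d2 these letters are not in the windows searched. Per1 also has a second start site, and its window, like that of the other Arntl start site, holds none of these letters.

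The 3 Period genes, which encode repressors of CLOCK and BMAL1, did not move together. Per1, the member most quickly induced by light and by neuronal activity, read 213.3, 199.3 and 189.1 in KO mice, against 241.2, 245.3 and 263.2 in WT mice. All KO values lay below all WT values, and the ranges were narrow in both groups. The means were 201 ± 12 in KO and 250 ± 12 in WT (SD, n = 3), and on the log2(signal + 16) scale the KO level was 0.81 times that of WT. The difference was -0.30 (SE 0.10, adjusted p = 0.36), with a 95% interval of -0.52 to -0.07. An exact permutation test over mice gave p = 0.1, the smallest that 3 against 3 allows.

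Per2 encodes a Period protein whose mutation disrupts the daily rhythm of mice. Its brightest probe set, 1417602_at, read 261.3, 186.2 and 322.2 in KO mice, against 196.3, 220.4 and 180.5 in WT mice. KO 3 and KO 1 were above every WT mouse and KO 2 lay among them, so the groups overlapped. The difference was 0.31 (SE 0.16, adjusted p = 0.61), with an interval of -0.04 to 0.67, and without KO 3 it was 0.14. The other Per2 probe sets gave 0.36 and 0.27 (adjusted p = 0.64 and 0.69), so all 3 probe sets had the same sign. Per1 and Per2, both textbook E-box targets, thus had differences of opposite sign.

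Per3 encodes the Period protein whose loss alters the mouse rhythm least, and its probe sets disagreed. The brightest tested, 1458176_at, read 144.3, 166.9 and 193.7 in KO mice, against 165.7, 170.1 and 173.4 in WT mice. The WT mice lay within the KO range, and the difference was -0.02 (SE 0.13, adjusted p = 0.98), or -0.12 without KO 3. In contrast, 1441445_at read 89.5, 75.6 and 93.7 in KO mice, against 159.9, 134.2 and 152.8 in WT mice. Every KO value lay well below every WT value. Mean signals with their SD were 86.3 ± 9.5 in KO (n = 3), against 149 ± 13 in WT (n = 3). The difference was -0.69 (SE 0.14), a KO level 0.62 times that of WT on that scale. This was the smallest p among the 21 probe sets (unadjusted p = 0.00028, adjusted p = 0.058 in limma, exact permutation p = 0.1). It passed the threshold only with the stricter filter at the 60th percentile (adjusted p = 0.048), and the other alternatives gave up to 0.22.

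The remaining tested Per3 probe sets did not share that difference. The probe set 1421087_at gave -0.06 (interval -0.35 to 0.23) and 1442243_at gave 0.31 (interval -0.10 to 0.72), whereas the interval of 1441445_at ran from -0.99 to -0.39. Without KO 3 the first of these was -0.12 and the second 0.11. Of the pair below the filter, 1460662_at read 3.6, 13.5 and 14.8 in KO mice, against 32.8, 30.7 and 21.5 in WT mice. The groups did not overlap there either, but all 3 KO signals and 1 WT signal were under the filter signal, and no test was made. The other, 1421086_at, read between 1.3 and 23.2 in KO mice and between 2.7 and 13.7 in WT mice. Both dim probe sets and 1421087_at were designed from the same curated transcript record, while the other 3 each came from a record of their own.

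Per3 also had called genes as neighbours. Among the 5 nearest tested genes on each side, taken in the gene order of GRCm38.p6, Vamp3 and Slc2a5 each had a called probe set, both lower in KO (differences -1.36 and -1.68). Of the 100 such neighbours of the 10 clock genes 3% had a call, against 0.674% of all 12323 named genes tested, and the third was Ramp1, near Per2 (difference 0.93). For Vamp3 and Ramp1 the called probe set was not the brightest tested one of the gene, and that brightest one was not called. No call lay among the neighbours of the other 8 genes. The part of these neighbourhoods in the Per3 and Per2 values was not tested.

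**Figure D2:**
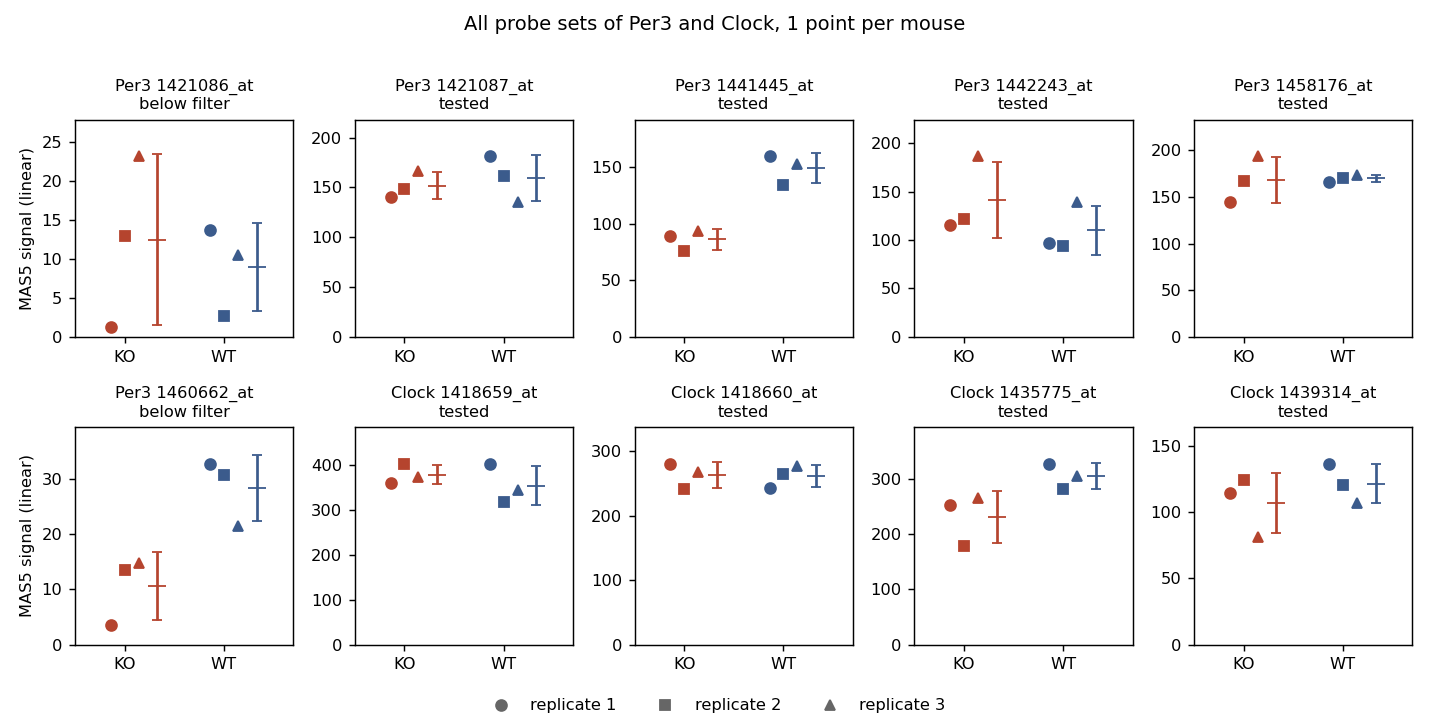
MAS5 signal (linear, from 0) for all 6 probe sets of Per3 and all 4 of Clock, with KO mice left of WT mice, 1 point per mouse and a bar for the mean and SD of each group (n = 3). KO mice lie below WT mice for Per3 1441445_at (75.6 to 93.7 against 134.2 to 159.9), Per3 1460662_at and Clock 1435775_at, and the groups overlap in the other 7 panels.

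The Cryptochrome genes encode the main repressors of CLOCK and BMAL1. Cry1, the repressor that acts late in the cycle, read 241.4, 248.9 and 166.9 in KO mice, against 147.7, 168.1 and 149.8 in WT mice. KO 1 and KO 2 were far above the WT mice, but KO 3 lay just under WT 2. Mean signals with their SD were 219 ± 45 in KO (n = 3), against 155 ± 11 in WT (n = 3). The difference was 0.44 (SE 0.15, adjusted p = 0.34), with an interval of 0.12 to 0.76, and without KO 3 it was 0.61 (adjusted p = 0.093). On the log2(signal + 16) scale the KO level was 1.36 times that of WT. This was the largest positive difference among the 21 probe sets.

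Cry2 read 420.0, 463.9 and 441.1 in KO mice, against 361.4, 391.7 and 427.1 in WT mice. Only KO 1 lay inside the WT range. The difference was 0.16 (SE 0.09, adjusted p = 0.65), with an interval of -0.04 to 0.36. Cry1 and Per1, whose windows above both hold CACGTG, differed between the genotypes with opposite sign.

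Of the REV-ERB genes, Nr1d1 encodes REV-ERB alpha, a strongly rhythmic repressor of Arntl. It read 73.3, 81.6 and 9.7 in KO mice, against 101.7, 69.5 and 81.3 in WT mice. KO 3 stood alone near the bottom of the scale, under the filter signal, while KO 1 and KO 2 lay within the WT range. The difference of -0.71 had an SE of 0.39 (adjusted p = 0.64), and without KO 3 it was -0.09 (adjusted p = 0.94). Nr1d1 had a single probe set, so the low value could not be set against another probe set of the gene.

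Nr1d2, which encodes the related receptor REV-ERB beta, differed least of the 10 genes. Its brightest probe set read 2111.3, 2226.6 and 2301.6 in KO mice, against 2332.5, 2068.7 and 2178.7 in WT mice. The ranges lay on top of each other, and KO 3 was the highest KO mouse here, unlike for Nr1d1. The difference was 0.01 (SE 0.07, adjusted p = 0.98), with an interval of -0.14 to 0.17, so that a KO level below 0.91 or above 1.12 times that of WT lay outside it. Without KO 3 it was -0.01. The dimmer Nr1d2 probe set gave 0.13 (SE 0.15, adjusted p = 0.85).

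Dbp, an output gene known for one of the widest daily swings among clock-controlled transcripts, had a pair of probe sets with opposite signs. The brighter, 1438211_s_at, read 1943.9, 1834.4 and 1881.7 in KO mice, against 1501.7, 1735.6 and 1897.9 in WT mice. The KO mice lay close together, with KO 1 just above a wider WT range and KO 2 and KO 3 in its upper part. The difference was 0.15 (SE 0.09, adjusted p = 0.66), with an interval of -0.04 to 0.33. The other, 1418174_at, read 806.5, 755.3 and 737.8 in KO mice, against 758.8, 823.8 and 910.0 in WT mice. Here KO 2 and KO 3 lay just under the WT range and KO 1 within it, with a difference of -0.11 (SE 0.09, adjusted p = 0.75). For both probe sets the highest WT value was that of WT 3 and the lowest that of WT 1.

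Arntl encodes BMAL1, the partner without which the mouse clock stops. Its brighter probe set read 308.3, 290.0 and 243.6 in KO mice, against 249.0, 265.0 and 208.7 in WT mice. KO 1 and KO 2 were above all WT mice and KO 3 lay among them. The difference was 0.21 (SE 0.12, adjusted p = 0.66), with an interval of -0.06 to 0.47. The dimmer probe set gave 0.10 (SE 0.16, adjusted p = 0.90), or 0.20 without KO 3. Both probe sets thus averaged higher in KO than in WT, without passing the threshold, and a KO level below 0.96 times that of WT lay outside the interval of the brighter one.

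Clock, the partner of BMAL1 and itself little rhythmic in most tissues, had 4 probe sets. The brightest read 359.7, 402.5 and 371.8 in KO mice, against 401.8, 316.5 and 342.6 in WT mice. The groups overlapped widely, with a difference of 0.10 (SE 0.10, adjusted p = 0.84). A second from the same design record gave 0.01 (interval -0.22 to 0.23), or -0.0015 without KO 3. In contrast, 1435775_at read 251.9, 177.6 and 265.2 in KO mice, against 327.8, 281.5 and 305.8 in WT mice. All KO mice lay below all WT mice, with a difference of -0.39 (SE 0.14, adjusted p = 0.37, exact permutation p = 0.1), and without KO 2, the lowest mouse, it was -0.22 (adjusted p = 0.74). The fourth, 1439314_at, gave -0.18 (SE 0.16, adjusted p = 0.80), or -0.017 without KO 3.

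**Figure D3:**
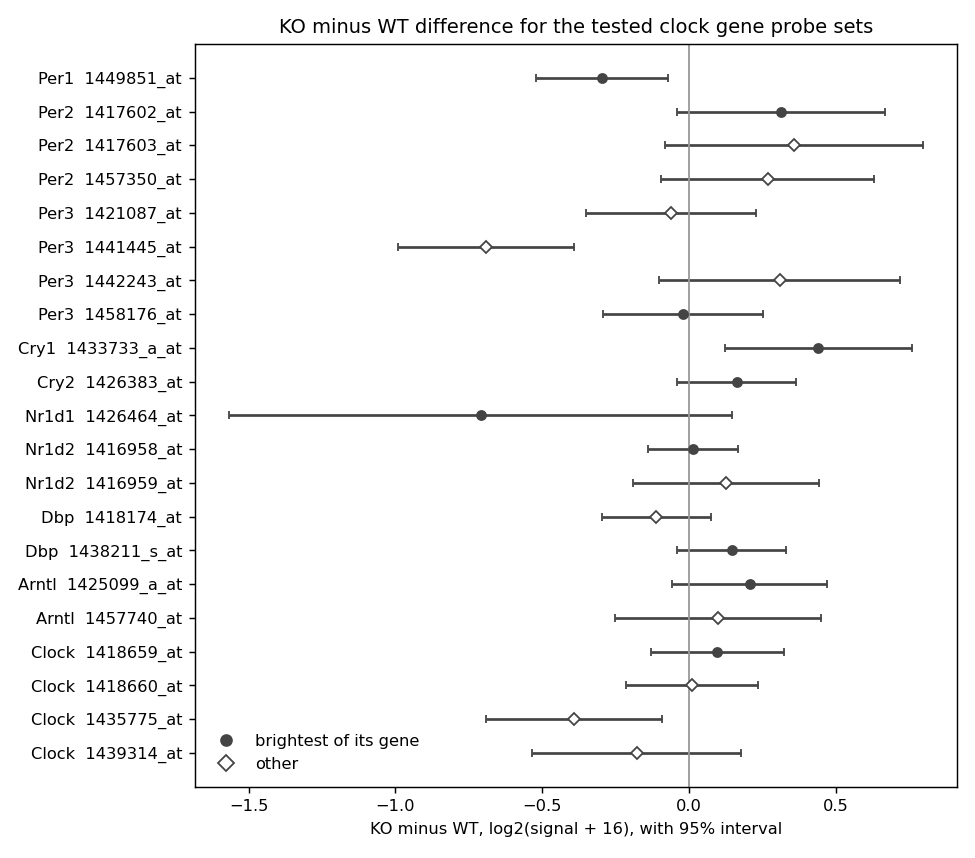
KO minus WT difference on the log2(signal + 16) scale for each of the 21 tested clock gene probe sets, with its 95% interval from limma, where filled circles are the brightest probe set of a gene. The intervals of Per1, Per3 1441445_at, Cry1 and Clock 1435775_at leave out 0, and that of Nr1d1 (-1.57 to 0.15) is the widest.

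Agreement between probe sets bears on how far each value speaks for its gene. Of the 6 genes with more than 1 tested probe set, 3 had all probe sets on one side, namely Per2, Nr1d2 and Arntl, and 3 had probe sets on both sides, namely Per3, Dbp and Clock. Per1, Cry1, Cry2 and Nr1d1 rest on 1 probe set each.

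The levels of the activator arm and of the repressor and output arm were also described per mouse. Each gene was taken by its brightest tested probe set relative to its WT mean, and the genes of an arm were averaged. The activator arm, Arntl and Clock, stood at 0.19, 0.22 and 0.05 in KO mice, against 0.12, -0.01 and -0.11 in WT mice. The repressor and output arm, with the other 8 genes, stood at 0.08, 0.07 and -0.13 in KO mice, against -0.01, -0.01 and 0.02 in WT mice. In KO 1 and KO 2 both arms were thus above the WT mean, the activator arm further. They lay on opposite sides of it in KO 3, and also in WT 1 and WT 3. Of the 8 genes in the repressor and output arm, 5 had a difference above 0 and 3 below, with a median of 0.08, and both activator genes were above 0. The Period and Cryptochrome genes alone stood at 0.13, 0.09 and 0.14 in KO mice, against -0.05, 0.04 and 0.01 in WT mice, without overlap. The 3 Period genes by themselves stood at -0.02, -0.14 and 0.15 in KO mice, against -0.03, 0.04 and -0.01 in WT mice, which overlapped. Nr1d1, Nr1d2 and Dbp stood at -0.01, 0.03 and -0.58 in KO mice, against 0.05, -0.09 and 0.04 in WT mice, with KO 3 apart from the rest.

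The repressor and output arm minus the activator arm was -0.11, -0.15 and -0.18 in KO mice, against -0.13, -0.0008 and 0.13 in WT mice. The KO mice lay in the lower part of the WT range or just under it, with WT 1 among them. The group means differed by -0.15, with SDs of 0.034 in KO and 0.13 in WT (n = 3). Without KO 3 the difference was -0.13. The value also depended on the genes taken. Without Nr1d1, whose KO 3 signal was so low, it was -0.04, and the KO mice (-0.08, -0.14 and 0.08) lay within the WT range (-0.17 to 0.14). With the mean of all tested probe sets of a gene in place of the brightest it was -0.03.

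Cry1 peaks later than the other E-box genes, so the difference of the arms was also taken without the Cryptochromes. It was then -0.20, -0.27 and -0.26 in KO mice, against -0.11, -0.02 and 0.13 in WT mice, and the groups did not overlap. Leaving out Nr1d1 as well gave -0.17, -0.28 and 0.09 in KO mice, against -0.15, 0.02 and 0.14 in WT mice, which overlapped and gave a difference of -0.12. In both versions KO 1 and KO 2 lay below every WT mouse, and KO 3 did so only with Nr1d1 included. No test was made on these averages, because the genes were chosen with earlier results of these data known.

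**Figure D4:**
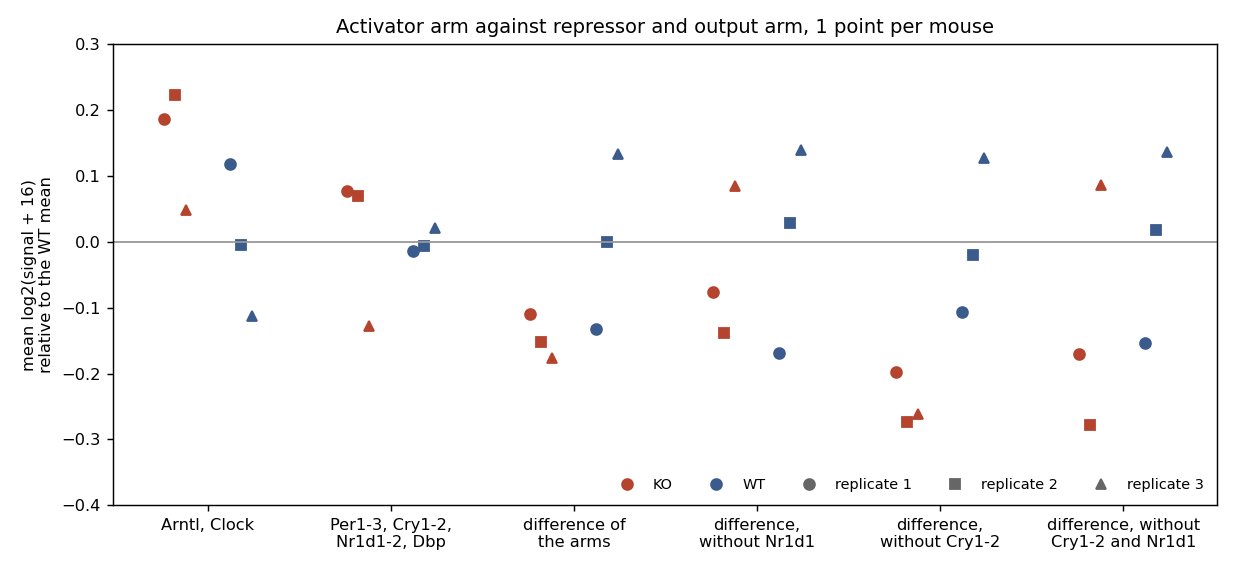
Mean log2(signal + 16) relative to the WT mean for the activator arm (Arntl, Clock), for the repressor and output arm (the other 8 genes), and for their difference with all genes and without Nr1d1, Cry1 and Cry2, or all 3 of these, with KO left of WT and 1 point per mouse. The KO mice separate from the WT mice only in the difference without Cry1 and Cry2 (-0.27 to -0.20 against -0.11 to 0.13), and not once Nr1d1 is left out too.

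The wider clock machinery was read from 27 further genes, of which 24 had a tested probe set. Of their 68 probe sets 0 passed the threshold in limma, 6 had an unadjusted p under 0.05 (9.17% over all probe sets), and the groups did not overlap for 10 (14.4% over all), so both counts were near the background. Their median difference was 0.07, with 45 above 0 and 23 below. Hlf, a PAR bZIP relative of Dbp, gave 0.20 by its brighter probe set (SE 0.08, adjusted p = 0.48). It read 901.8, 841.0 and 762.8 in KO mice, against 756.3, 725.1 and 690.8 in WT mice, without overlap, whereas its second probe set gave 0.02. Nfil3, the repressor that opposes Dbp at D-boxes, read 29.7, 52.6 and 37.6 in KO mice, against 15.4, 20.1 and 33.7 in WT mice (difference 0.53, SE 0.25, adjusted p = 0.55). These signals lay near the filter and overlapped. Npas2, which can replace Clock in forebrain, gave -0.02 by its brighter probe set, and Ciart, an E-box target that represses the activator, gave 0.04. Bhlhe41 1421099_at, named after its values were seen, was also among the 6, and was lower in KO without overlap. Its difference was -0.50 (SE 0.21, adjusted p = 0.47 in limma), and the brighter Bhlhe41 probe set gave -0.02.

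Rora encodes the ROR receptor through which PGC-1alpha is known to act on Arntl, and it was chosen for description after its values were seen. All 9 of its probe sets had a difference above 0, from 0.08 to 0.64, and none passed. WT 1 was the highest WT mouse in each. For 1455165_at the signals were 408.9, 445.9 and 357.1 in KO mice, against 578.8, 225.9 and 239.3 in WT mice. The KO mice lay between WT 1 and the other WT mice, and the difference was 0.33 (SE 0.26, adjusted p = 0.82). Without WT 1 it was 0.75 (adjusted p = 0.022), and 1420583_a_at then gave 0.67 (adjusted p = 0.043), the only clock-related calls made by leaving out 1 array. The groups did not overlap for a pair of dimmer Rora probe sets. The first, 1458145_at, read 127.7, 99.6 and 93.9 in KO mice, against 73.1, 67.9 and 69.4 in WT mice (difference 0.51, SE 0.15, adjusted p = 0.28). The second, 1424035_at, gave 0.64 (SE 0.22, adjusted p = 0.36).

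Nampt, a clock-driven enzyme of NAD synthesis, was likewise picked after its values were seen, since one probe set, 1417190_at, had the smallest p of the 68. It read 199.9, 178.6 and 158.5 in KO mice, against 108.0, 123.5 and 128.3 in WT mice. The groups did not overlap (difference 0.52, SE 0.13, adjusted p = 0.15), but the brightest Nampt probe set gave 0.0005 and the third -0.13. The next smallest p was that of Csnk1a1 1437923_at, for a casein kinase 1 gene (difference 0.42, adjusted p = 0.20), whose brightest probe set gave 0.09.

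Per1 also responds to neuronal activity and to glucocorticoids, so lists of genes for both were read beside it. Of 10 probe sets for 9 activity-regulated genes none passed in limma. The median difference was 0.14, with 6 above 0 and 4 below. The groups did not overlap for 3 (14.4% over all), those of Dusp1, Fosb and Egr2 1427683_at, all higher in KO. At an unadjusted p under 0.05 limma counted 1 (9.17% over all). That one was Dusp1, a phosphatase of MAP kinases, at 679 ± 63 in KO and 537 ± 12 in WT (SD, n = 3), with a difference of 0.33 (adjusted p = 0.19). Arc, an effector of synaptic plasticity, gave -0.26 (adjusted p = 0.55). Of 17 probe sets for 8 glucocorticoid-responsive genes 1 passed (0.47% over all), 7 had an unadjusted p under 0.05 (9.17% over all) and the groups did not overlap for 5 (14.4% over all). The median difference was 0.27, with 13 above 0 and 4 below. Among the 7, the probe sets of Fkbp5, Mertk, Tsc22d3 and Zbtb16 were higher in KO and none of them passed. Only that of Pdk4 was lower. The remaining Tsc22d3 probe sets, outside the 7, went the other way. For 1425557_x_at, among the 5 without overlap, all KO mice lay below all WT mice (difference -0.22), and 1444365_at gave -0.26. The one that passed was Pdk4, a kinase that restrains pyruvate oxidation and that PGC-1alpha is itself known to induce. It fell to 79 ± 17 in KO, against 158 ± 24 in WT (SD, n = 3), a difference of -0.87 (SE 0.16, adjusted p = 0.039). The call was lost without any 1 array except KO 3 (adjusted p up to 0.17), and also with no filter, without the intensity trend or with the replicate block (up to 0.22).

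The nearest profiles to that of Dbp, by the root mean square difference over the 6 mice of log2 values centred on their own mean, belonged to Rmi1 (0.026), Grm8 (0.031), Zdbf2 (0.032), Lrrc3 (0.032) and Rsf1 (0.036). The median root mean square difference over all 12323 genes was 0.194. The genes listed were picked for a profile like that of Dbp over the same mice. A KO minus WT difference close to that of Dbp therefore follows from the choice and is no separate finding. Their differences ran from 0.13 to 0.20, and none passed the threshold.

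Medians of the arrays ran from 43.1 to 45.0 in KO and from 44.7 to 47.3 in WT, and arrays correlated at 0.975 to 0.983. For GAPDH, 3' over 5' signal on the log2 scale ran from -0.46 to -0.44 in KO and from -0.49 to -0.43 in WT. For beta-actin it ran from 1.04 to 1.17 in KO and from 1.03 to 1.24 in WT. Striatal projection neuron markers were bright in both groups, with summed signals of 19663 to 21494 in KO and 18091 to 21889 in WT over the 7 of 9 tested. Ttr, a thyroid hormone carrier made by the choroid plexus, moved with genotype, and all 4 of its probe sets passed, against 0.47% of all. Its brightest read 3659.7, 2597.4 and 3061.7 in KO mice, against 1264.4, 1543.4 and 2192.9 in WT mice, and rose by 0.91 (adjusted p = 0.035). Foxj1, a marker of ciliated ependyma, gave 0.07 (adjusted p = 0.95), and the other choroid plexus markers, Kl and Folr1, lay below the filter. Of the remaining marker lists none had a call in limma. At an unadjusted p under 0.05 limma counted 7 of 14 oligodendrocyte probe sets, against 9.17% of all probe sets tested. Of these 14, 12 were lower in KO, and the groups did not overlap for 4 (14.4% over all). The count was 3 of 19 for astrocyte, 1 of 7 for microglial, 1 of 3 for interneuron and 1 of 9 for projection neuron probe sets. It was 0 of 3 for cortical, 0 of 7 for endothelial and 0 of 3 for hypothalamic ones. The members named next had the smallest p by a gene's brightest probe set, which need not be a probe set counted above. They were Mag (-0.43) and Mobp (-0.19) for oligodendrocytes, and Aldh1l1 (-0.20) and Gja1 (0.14) for astrocytes. For microglia they were Aif1 (-0.64) and P2ry12 (-0.24), but 4 of the 7 microglial probe sets were higher in KO and 3 lower (median 0.07). The neuronal members were Pvalb (-0.64) and Sst (0.15), Drd2 (0.22) and Penk (0.10), and the cortical Tbr1 (0.30) and Slc17a7 (-0.28). In limma those named for astrocytes and projection neurons had unadjusted p from 0.071 to 0.18, so they were not among the counted probe sets. Astrocyte differences ran from -0.44 to 0.44. Cldn5 (-0.29) and Flt1 (0.18) stood for endothelium, and Pmch (0.31) and Oxt (0.03) for hypothalamus. The part of these cells in the clock values was not tested, and in whole striatum fewer cells of a type and less RNA per cell cannot be told apart.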

How the data were processed

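Per the labels, striatal RNA of 3 KO and 3 WT mice was isolated on Qiagen RNeasy columns, labelled with biotin and hybridised to 1 array per mouse. The deposited values are intensity values, 1 per probe set, which the submitters' processing notes credit to MAS5, with no version or settings named. These deposited intensity values share a mean of 150.0 on all 6 arrays once the lowest and highest 2% are left out. The number of arrays limits the precision.

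Probe sets were named from GEO's platform annotation, 34958 with exactly 1 symbol, of which 34754 matched a GRCm38.p6 gene. The 64 control probe sets were left out. Signals were transformed to log2(signal + 16), dim probe sets up to the 40th percentile of mean signal were removed, and KO and WT were compared with limma 3.58.1 in R 4.3.3 (lmFit and eBayes, intensity trend on), adjusted by Benjamini-Hochberg over the 27022 probe sets left. Single values were also given an exact two-sided permutation test. The procedure was tested on simulated data.

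All probe sets of the 10 genes are reported, a gene's brightest tested one leading. Of other lists the called members, or the 2 with the smallest p by the brightest probe set of a gene, are named, and those picked later are said to be. The members and lists were chosen with earlier results of these data known. The alternatives were quantile normalization, median centring, offsets of 1 and 64, no filter or the 60th percentile, eBayes without trend or robust, a replicate block, the looser threshold of 0.1, averaging the probe sets of a gene, and each array left out in turn.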

Additional observations from a re-analysis of the deposited data

How the results depend on the processing

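The count of clock gene probe sets called stayed at 0 under all alternatives except the filter at the 60th percentile and an adjusted p under 0.1, each of which called 1, Per3 1441445_at. The count over the whole array, 127, was 52 when nothing was filtered, 25 when the intensity trend was off and 66 to 101 without each array in turn, the lowest without KO 1, with 74 without KO 2 and 69 without WT 2. Further clock genes had 0 calls except without WT 1 (0 to 2 over arrays left out, both of Rora). The median difference over the clock gene probe sets, 0.10, was 0.14 after median centring, 0.066 with an offset of 64, 0.055 with the filter at the 60th percentile and 0.024 to 0.11 without each array in turn. It was 0.034 without KO 2, 0.059 without WT 1 and 0.024 without WT 2, and the cause was not tested. Among the named genes, signs turned for 6 probe sets, none of which passed the threshold. Per3 1458176_at gave 0.024 after median centring. Without each array in turn it ran from -0.12 to 0.077, Per3 1421087_at from -0.16 to 0.028, Clock 1418660_at from -0.040 to 0.066, Nr1d2 1416958_at from -0.027 to 0.059, Rora 1441085_at from -0.13 to 0.24 and Rora 1458129_at from -0.00073 to 0.49. The difference of the arms kept its sign under every processing alternative run, from -0.21 without WT 1 to -0.03 with the probe sets of a gene averaged. Unplanned versions with other gene sets kept it too. They ran from -0.24 without Cry1 and Cry2 to -0.04 without Nr1d1, with -0.05 when further clock genes were added. Median centring and the replicate block cannot change the difference of the arms, and both gave -0.15. The replicate numbers of the titles did not pair the mice: same-numbered KO and WT deviations correlated at -0.009, -0.035 and 0.017. With the replicate block 0 clock gene probe sets were called, 100 over the whole array, and the adjusted p of Per3 1441445_at was 0.087.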
